A study of Ovis aries with 2 samples.

Results

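miR-451, miR-223 and miR-342 are miRNAs known best from blood cells, and their levels were followed in extracellular vesicles of the uterine luminal fluid (ULF) of sheep. They were taken from the table of mature miRNAs by precursor name (mir-451, mir-223 and mir-342), and all 3 were found among its 81 mature miRNAs. Each name has a single mature sequence there. All 3 were listed in vesicles from cyclic ewes, whereas miR-451 and miR-342 but not miR-223 were listed in vesicles from pregnant ewes. Counts under 10 are not listed, so that miR-223 was not shown to be absent there. Relative to all mature miRNA counts, miR-451 and miR-223 were lower in the library of pregnant ewes (14P) than in that of cyclic ewes (14C). miR-342 was not lower on this scale, and against miR-451 it stood 2.92-fold higher in 14P.

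The study compared vesicles of pregnant and cyclic Rambouillet ewes on day 14 after estrus to learn what vesicles carry between the endometrium and the conceptus. Pregnant ewes had been mated to an intact ram, cyclic ewes carried no pregnancy, and no further treatment is described for either group. The ULF was flushed from the uterus at necropsy, cleared by centrifugation and filtration, and its vesicles were precipitated with ExoQuick-TC. RNA of 4 ewes per condition was pooled into 1 library, 14P for pregnant and 14C for cyclic ewes. The spread between ewes therefore cannot be seen, and each ratio below compares these libraries and not the conditions.

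A miRNA is a short RNA that guides an Argonaute protein to messenger RNAs, mostly through its seed, bases 2 to 8 from the 5′ end, and lowers the output of its targets. miR-451 is among the most abundant miRNAs of red blood cells, and in mice and zebrafish its precursor is cut by Argonaute 2 in place of Dicer. miR-223 is a miRNA of neutrophils, monocytes and platelets, and in mice it restrains the formation and activity of granulocytes. miR-342 is found in lymphocytes and myeloid cells and in humans lies within an intron of EVL, a gene of actin dynamics, but it is also made outside the blood lineages.

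The mature sequences to which the reads were compared are shown so that their seeds and ends can be set side by side. They are the cattle sequences of the deposited table, written 5′ to 3′ as DNA, with the seed in capitals.
miR-451: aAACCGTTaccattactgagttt
miR-223: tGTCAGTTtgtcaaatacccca
miR-342: tCTCACACagaaatcgcacccatct
The 3 seeds differed from each other, and none of the other listed miRNAs had one of them, whereas 47 of the 81 mature sequences shared their seed with at least 1 other. The reference of miR-342 was the longest of the table with 25 bases, and those of miR-451 and miR-223 had 23 and 22. Their GC content was 34.8% for miR-451, 40.9% for miR-223 and 48.0% for miR-342.

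Depth set how finely the libraries could be compared. 14P had 119605 reads and 14C had 94735, but the mature miRNA counts added up to 2809 and 7921. Counts under 10 are listed as 0, so that a miRNA unlisted in a library can have up to 9 copies there. This bound corresponds to 0.320% of the mature counts in 14P and 0.114% in 14C. Intervals are 95% intervals, exact Clopper-Pearson for shares and exact conditional binomial for ratios. They cover the counting error of reads only, and not the spread between ewes or libraries. Without molecular identifiers several reads may stem from 1 molecule, so that the intervals may be too narrow even for counting error.

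miR-451 had 12 counts in 14P and 71 in 14C. These were 0.427% (0.221 to 0.745%) and 0.896% (0.701 to 1.13%) of the mature miRNA counts. At the cyclic share, 25.2 counts would have been found in 14P. The ratio, here always 14P over 14C, was 0.477 (0.235 to 0.885). miR-451 ranked 31st of the 80 listed miRNAs in 14C, just below miR-342, and 48th of 54 in 14P, tied with miR-185 among others. Among the 53 miRNAs listed in both libraries it had the lowest ratio, with 52 above it. The 3 miRNAs nearest to it in log2 ratio were miR-103 at 0.633 (0.297 to 1.23), miR-424 at 0.641 (0.340 to 1.13) and miR-200b at 0.653 (0.522 to 0.810), a likeness over 2 libraries only.

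miR-223 had 56 counts in 14C, 0.707% (0.534 to 0.917%) of its mature counts, and was unlisted in 14P. The cyclic share would have given 19.9 counts in 14P, where at most 9 can be hidden. The ratio was thus at most 0.453, with 0.197 to 0.923 as the interval of that bound, and miR-223 was at least 2.21-fold lower. It ranked 35th in 14C, between miR-339a and let-7e, both of which were listed in 14P with 28 and 22 counts. Of the 27 miRNAs listed for cyclic ewes only, miR-223 had the highest count, and the nearest were miR-361 with 51 counts, miR-141 with 43 and miR-34c with 31. An unlisted miRNA needed at least 52 cyclic counts to be called lower, which miR-223 exceeded by a small margin.

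miR-342 had 41 counts in 14P and 83 in 14C. Its share was 1.46% (1.05 to 1.97%) in 14P and 1.05% (0.835 to 1.30%) in 14C, and these intervals overlap. The ratio was 1.39 (0.934 to 2.05), so that no difference was detectable at this depth relative to mature counts. A ratio of 0.5 lies below this interval. miR-342 ranked 24th of 54 in 14P, between let-7f and let-7g, and 30th of 80 in 14C, between miR-29b and miR-451. Its log2 ratio of 0.48 lay above the median of 0.22 of the miRNAs listed in both libraries, with 39 below it and 13 above. miR-107, miR-151 and the miR-423 sequence listed in both libraries, chosen after the values were seen, had the nearest log2 ratios.

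**Figure D1:**
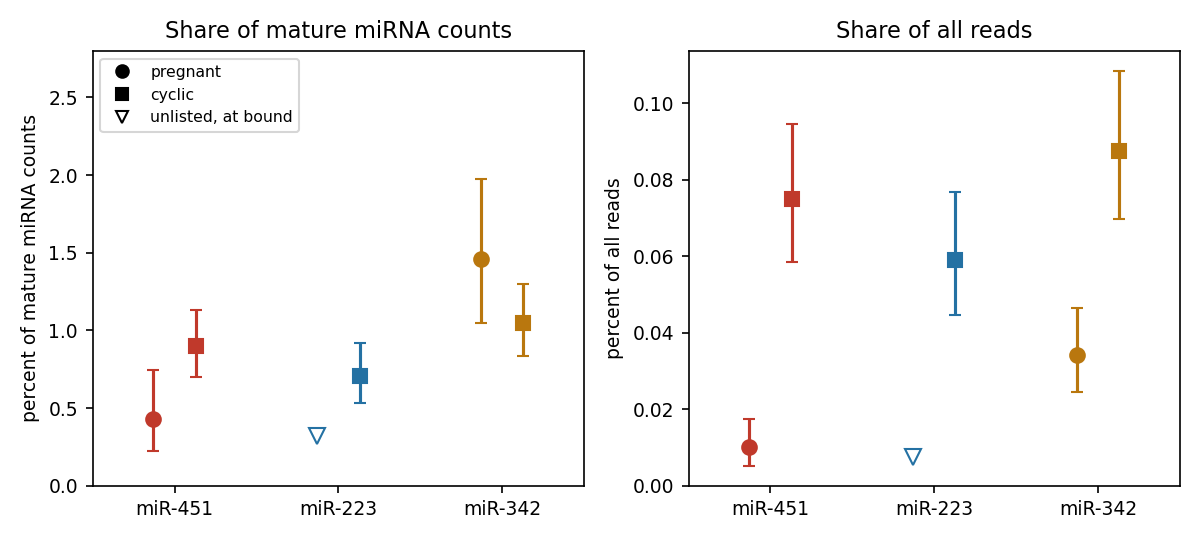
Shares of miR-451, miR-223 and miR-342 in vesicles of pregnant (circles, 14P) and cyclic ewes (squares, 14C), as percent of mature miRNA counts (left) and percent of all reads (right), with 95% Clopper-Pearson intervals and, for the unlisted miR-223, the bound of 9 copies (open triangle). Of mature counts, miR-451 was at 0.896% in 14C and 0.427% in 14P, and miR-342 was at 1.05% and 1.46%, whereas of all reads each of the 3 was lower in 14P.

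A miRNA was called lower or higher where its ratio was at least 2-fold and its interval excluded 1. By this rule 2 of the 3, miR-451 and miR-223, were lower in 14P and none was higher. Of all 81 mature miRNAs 2 were called lower, 2.47%, and these are the same miR-451 and miR-223. Another 5 of the 81, 6.17%, were called higher, which were miR-99b, miR-23b, miR-92a, miR-9 and a miR-423 sequence unlisted in 14C, named here after their values were seen. Depth limited the calls of lower, since only 36 of the 81 had at least 52 cyclic counts, the fewest at which this call was possible. Of the 27 listed for cyclic ewes only, 26 had under 52 counts. The 3 miRNAs were chosen with these ratios known, so the counts describe them and test nothing.

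**Figure D2:**
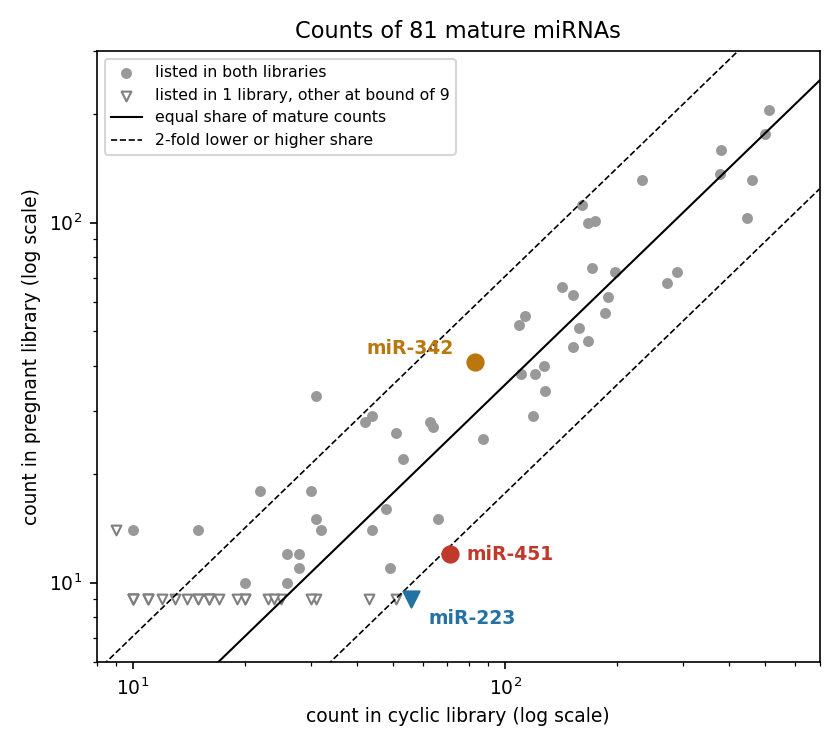
Counts of the 81 mature miRNAs in 14C (x axis) and 14P (y axis) on log scales, where the solid line marks equal shares of mature counts, dashed lines 2-fold differences, and triangles miRNAs unlisted in 1 library and drawn at 9 copies. miR-451 (12 and 71 counts) and miR-223 (at most 9 and 56) lie beyond the lower 2-fold line, and miR-342 (41 and 83) lies above the line of equal shares.

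Ratios of one of these miRNAs to another within a library need no scaling, and the 3 pairs were compared in this way after the data were examined. There were 1.17 counts of miR-342 per count of miR-451 in 14C and 3.42 in 14P. The value in 14P over that in 14C was 2.92, with an interval of 1.37 to 6.57 that excludes 1. Against miR-223, miR-342 stood at 1.48 in 14C and at 4.56 or more in 14P, at least 3.07-fold higher (1.33 to 7.73 at the bound). Both of these intervals lie above 1, but they are not adjusted for the choice of these miRNAs with their ratios known. miR-451 had the lowest ratio of the 53 miRNAs listed in both libraries. The intervals also rest on reads, several of which may stem from 1 molecule. A difference beyond these limits was not tested. Whether miR-451 and miR-223 differed from each other could not be told. There were 1.27 counts of miR-451 per count of miR-223 in 14C and at least 1.33 in 14P, and the interval of 0.376 to 3.04 at the bound is wide. Fewer vesicles of one source and less of a miRNA in each vesicle cannot be told apart in these pools.

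Epithelial miRNAs offer another base, since the endometrial epithelium borders the lumen. The paper holds it likely that the trophectoderm of the conceptus also releases vesicles in pregnant ewes. This base may therefore itself differ between the libraries, which was not tested. The list, of miR-200a, miR-200b, miR-200c, miR-141 and miR-429, which maintain the epithelial state, with miR-205, miR-31 and miR-34c, had all 8 members listed in 14C and 5 in 14P. The listed counts added up to 408, 14.5% (13.2 to 15.9%), in 14P and to 1283, 16.2% (15.4 to 17.0%), in 14C. With 9 copies each for miR-141, miR-429 and miR-34c, which were unlisted in 14P, the sum there was 435, 15.5% (14.2 to 16.9%). The members went different ways, with ratios of 0.653 (0.522 to 0.810) for miR-200b, 0.712 (0.543 to 0.924) for miR-200a and 1.59 (1.27 to 1.97) for miR-200c. Against the sum of listed counts, a base chosen after the data were examined, miR-451 had a ratio of 0.531 (0.260 to 1.00), miR-223 of at most 0.505 (0.218 to 1.04) and miR-342 of 1.55 (1.02 to 2.33). Against the sum of 435 these values were 0.498 (0.244 to 0.937), at most 0.474 (0.204 to 0.976) and 1.46 (0.961 to 2.18). miR-451 and miR-223 were called lower on the second sum and not on the first, and the interval of miR-342 excluded 1 on the first only. On this base the calls thus depend on how many copies of the unlisted epithelial miRNAs are hidden in 14P.

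The direction of miR-342 depended on what the counts were divided by. Of all reads of the library, miR-342 made up 0.0343% (0.0246 to 0.0465%) in 14P and 0.0876% (0.0698 to 0.109%) in 14C. On that base its ratio was 0.391 (0.262 to 0.575) and it was called lower. miR-451 then had a ratio of 0.134 (0.0661 to 0.249) and miR-223 of at most 0.127 (0.0554 to 0.259). This base moves every log2 ratio by -1.83, since mature miRNA counts made up 2.35% of the reads of 14P and 8.36% of those of 14C, and 58 of the 81 miRNAs were lower on it. Under edgeR's TMM, DESeq2's size factors, annotated reads and the total less its most abundant miRNAs (let-7a, miR-21 and let-7b), the ratio of miR-342 was 1.19 to 1.39 and it was not called. The order of the 3, with miR-342 above both others, does not change with the base, since any base moves them alike.

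**Figure D3:**
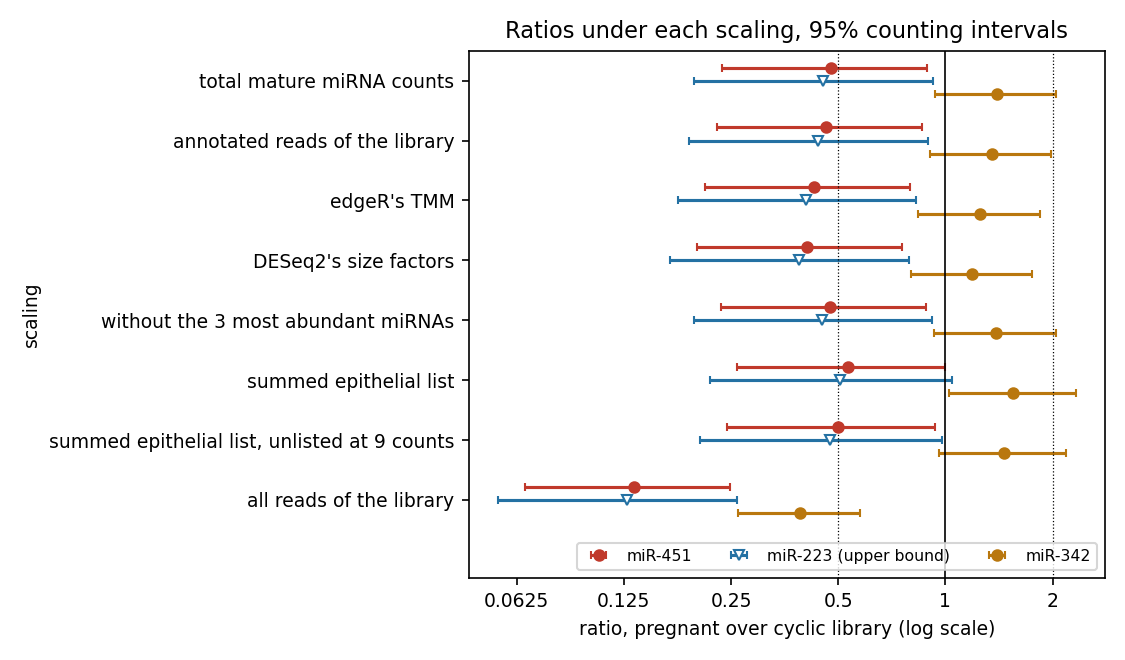
Ratio of 14P over 14C (log scale) for miR-451, miR-223 (open triangles, an upper bound) and miR-342 under 8 scalings, with 95% counting intervals, a solid line at 1 and dotted lines at 0.5 and 2. miR-342 lies between 1.19 and 1.55 except relative to all reads, where it is at 0.391, and the other two lie between 0.127 and 0.531.

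Other miRNAs of the same blood lineages were mostly unlisted. Of 6 erythroid miRNAs 3 were listed, miR-451, miR-16a and miR-16b. miR-144, which is transcribed together with miR-451 in mice and humans, miR-486, another abundant miRNA of red blood cells, and miR-363 were unlisted in both libraries. A name unlisted in both has at most 9 copies in each only if it is among the cattle references, which was not checked, and being unlisted is not absence. The listed 3 added up to 119 counts, 4.24% (3.52 to 5.05%), in 14P and 414 counts, 5.23% (4.75 to 5.74%), in 14C. Most of this sum was miR-16a and miR-16b, which many cell types express. miR-16a had 51 counts in 14P and 158 in 14C, a ratio of 0.910 (0.650 to 1.26), and miR-16b had 56 and 185, a ratio of 0.854 (0.621 to 1.16). Only 9 and 17 of the counts of miR-16a, and 13 and 47 of those of miR-16b, came from reads assigned to 1 precursor, so that these are not separate results. No difference in either was detectable. Of the 3 listed erythroid miRNAs 1, miR-451, was called lower and none higher, against 2.47% called lower of all 81, and the other 3 have no ratio. The median log2 ratio of the 3 was -0.23, which is the value of miR-16b, whose interval includes 1. The 53 miRNAs listed in both libraries had a median of 0.22, and 3 members are too few to set against it.

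Of 9 leukocyte miRNAs only miR-223 and miR-342 were listed. miR-150 of lymphocytes, miR-142, which is shared by most blood lineages, miR-155 and miR-146a of activated immune cells, and miR-146b, miR-181a and miR-181b were unlisted in both libraries and have no ratio. The leukocyte list added up to 41 counts, 1.46% (1.05 to 1.97%), in 14P and 139 counts, 1.75% (1.48 to 2.07%), in 14C. With miR-223 at 9 copies the sum in 14P was 50 counts, 1.78% (1.32 to 2.34%). Of its 2 listed members 1, miR-223, was called lower and none higher, against the same 2.47% of all 81. miR-126 of endothelium and platelets and miR-122, a liver miRNA carried in plasma, were unlisted in both. miR-451, miR-223 and miR-342 together took 1.89% (1.42 to 2.46%) of the mature counts of 14P and 2.65% (2.31 to 3.03%) of 14C. These intervals overlap, which does not show that the shares are equal, and no ratio of these shares was calculated. With miR-223 at 9 copies the share in 14P was 2.21% (1.70 to 2.82%). Whether blood cells or other cells gave these miRNAs to the vesicles was not tested.

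All 53 counts of the 3 miRNAs in 14P and all 210 in 14C came from reads assigned to 1 precursor only, against 74.8% and 74.3% of all mature counts. Reads shared with another listed miRNA therefore did not enter their values. Exact matches, in which a read equals the reference over its whole length, divided them. None of the 83 cyclic and 41 pregnant counts of miR-342 was exact, and with 3 counts of the total as the limit this allows shares of up to 3.61% and 7.32%. For miR-451 none of 71 and 12 was exact, which by the same limit of 3 counts allows up to 4.23% and 25%. miR-223 had 26 exact matches among its 56 cyclic counts, 46.4% (33.0 to 60.3%), against 9.80% of all mature counts in that library. Of the 81 miRNAs 23 had any exact match and 58, including miR-451 and miR-342, had none, and by exact share miR-223 stood 12th among the 23.

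The presence of exact matches went with the last base of the reference, a pattern noticed after the values were seen. Of the 36 references ending in T, such as those of miR-451 and miR-342, only those of miR-92a and let-7b had exact matches. Of the 18 ending in A, such as that of miR-223, 16 had them. Those ending in G had them in 2 of 18 and those ending in C in 3 of 9. In 14C the exact matches made up 43.8% of the counts of references ending in A and 0.215% of those ending in T. All 3 miRNAs were thus near the level of their own class. For references ending in G and C the shares were 2.75% and 13.8%, so that few exact matches were not particular to those ending in T. By reference length, 1 of 3 references of 20 bases or fewer and 2 of 13 of 21 bases had exact matches. So did 15 of 41 of 22 bases, 5 of 17 of 23 bases and none of the 7 longer ones. The counts of miR-451 and miR-342 thus rest wholly on reads that differ from the cattle sequence in length or by a mismatch, and the read sequences themselves were not analysed here. Of all reads reported as mature 5′ sequences, 74.0% in 14P and 74.3% in 14C were mismatch variants. Length variants made up 19.9% and 20.3%. This split was not examined for miR-451 and miR-342 themselves.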

How the data were processed

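Per the paper's methods, the authors sequenced small RNA on the Ion Torrent platform and analysed the reads in CLC Genomics Workbench (version not given in the sources used here). Reads of 15 to 55 bp were matched, with mismatches allowed, to cattle miRNAs from miRBase and grouped by mature miRNA. The annotation reports count 766 miRNA references. The deposited values are raw read counts in whole numbers, beside numbers of exact matches and of reads with a single precursor. The lowest listed count was 10. The paper gives a minimum of 10 copies and words it for each sequence. Since 14 of the 134 listed counts include only 1 to 9 exact matches, the minimum was inferred to act on the grouped count. The bound of 9 copies rests on this inference. The deposited annotation reports gave all, annotated and mature reads per library, and 252 mature reads of the pregnant ewes and 396 of the cyclic ewes are missing from the table.

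Counts were divided by total mature counts, and 9 copies stood for a count listed at 0, so that the value is a bound. With 1 library per condition no test and no model was used. Intervals within a library and against the epithelial list are exact conditional intervals of an odds ratio. Calculations used Python 3.11.15, NumPy 2.4.6, pandas 2.3.3, SciPy 1.17.1 and matplotlib 3.10.9, and scaling factors edgeR 4.0.16 and DESeq2 1.42.0 in R 4.3.3. The scaling factors of edgeR and DESeq2 were estimated from the 53 miRNAs listed in both libraries, which leaves out miR-223. Coverage of the intervals of ratios between libraries was checked on simulated counts of the more abundant miRNAs, without the cutoff on listed counts. Bounds, shares and odds ratios were not checked in this way.

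The miRNAs and the lists (erythroid, leukocyte, endothelium and platelet, liver, epithelium) were chosen with earlier results of these data known. The named miRNAs were these members and lists, the 3 nearest in ratio to miR-451 or in count to miR-223, and the neighbours in rank. Whether every listed name is among the cattle references was not checked. The second table held the same counts for the 81 miRNAs, and its 6 columns of a conceptus library that matches none of the samples here were not used. Columns of the authors' fold changes, ranges and differences were not used. The sheep annotation ARS-UI_Ramb_v3.0 names 106 miRNA genes, none of them for these 3, so no positions are given.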

Additional observations from a re-analysis of the deposited data

How the results depend on the processing

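miR-451 and miR-223 were called lower under all reads, annotated reads, edgeR's TMM, DESeq2's size factors and the total without the 3 most abundant miRNAs. They were also lower in the second table, which holds the same counts and so could not differ. Ratios in these settings were 0.134 to 0.477 for miR-451 and at most 0.127 to 0.453 for miR-223. Against the summed epithelial list, a base added after the data were examined, neither was called with listed counts only (0.531 and at most 0.505), and both were called with 9 counts for each unlisted member (0.498 and at most 0.474). miR-223 was also not called with exact matches only (at most 0.872, interval 0.360 to 1.92), where fewer reads remain, and was lower at 0.151 with 3 counts as its floor. miR-342 was not called except relative to all reads, where its ratio turned to 0.391. miR-451 and miR-342 have no exact matches and gave no value in that setting. Relative to all reads the 3 miRNAs took 0.0443% of the pregnant and 0.222% of the cyclic library, of annotated reads 1.41% and 2.05%, and of exact matches 0% and 3.35%. Of the 81 miRNAs, 58 were lower and 0 higher relative to all reads, against 2 and 5. At least 20 or 50 counts in either library left 2 and 0 higher, and a 2-fold ratio alone gave 13 higher. No paired analysis was possible because each condition has 1 library. Depth limits these values, since up to 9 copies of an unlisted miRNA may be hidden in a library.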
